A study of Mus musculus with 24 samples.

Results

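The core and linker histone cluster genes are the genes of the Hist1, Hist2, Hist3 and Hist4 loci that encode histones H1, H2A, H2B, H3 and H4. They were taken by name, as the protein-coding genes of the GENCODE M21 annotation whose symbol begins with Hist1h to Hist4h followed by one of these 5 classes. This gave 67 genes, of which 37 had at least 10 counts in 3 or more libraries and are described here. Total RNA was sequenced from 24 bulk samples of mouse fibroblasts cultured from E13.5 embryos. The cells were wild type (WT) or were labelled Vhl, Rassf1a or Vhl/Rassf1a, and each of the 4 genotypes had 3 libraries named GFP and given as control and 3 named Cre and given as knockout. Vhl is the subunit by which a ubiquitin ligase recognises hypoxia-inducible factors for destruction, and Rassf1a is a microtubule-binding tumour suppressor isoform of the Rassf1 gene. By its title the series is about what mutating both does to genome stability and to expression, with clear cell renal cell carcinoma in view. WT cells carry no altered Vhl or Rassf1a by label, so in them Cre and GFP libraries were compared without these alterations. Effects of Cre, of GFP, of their delivery and of the cultures cannot be told apart there.

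The labels do not give the way Cre or GFP was delivered, the exons altered or the number of embryos and cultures. Replicates may therefore come from 1 culture, in which case a p-value reflects only how far these samples differ, possibly for technical reasons. A design note of the series names kidney proximal tubule cells, and the sample labels, which name fibroblasts, were followed. Library totals were 29.9 to 55.8 M counts. Vhl itself checked the labels: its CPM (counts scaled by library total, with TMM normalisation) went from at least 25.7 in GFP to at most 2.85 in Cre libraries of Vhl cells, and from at least 20.8 to at most 2.70 in Vhl/Rassf1a cells. The summed count of Rassf1, at 25.8 to 31.2 CPM in Rassf1a GFP and 25.2 to 27.5 CPM in Rassf1a Cre libraries, covers all isoforms of the gene and so does not check the loss of Rassf1a. It was called higher in Cre than in GFP libraries of Vhl/Rassf1a cells (log2 fold change 0.47) and of Vhl cells (0.72). All 10 fibroblast markers were detected above 1 CPM, and the 6 erythroid markers summed to at most 0.30 CPM. The libraries Rassf1a GFP 1 and Vhl/Rassf1a GFP 2 deviated most from their groups with the GC content of genes (r of 0.53 and 0.60 across genes). The number of histone genes called without both is given beside other results of Vhl/Rassf1a cells, and was 1 for the difference of Cre effects between Vhl/Rassf1a and Vhl cells. It was 0 for Cre against GFP in Rassf1a cells, for the difference of Cre effects between Rassf1a and WT cells and for Rassf1a GFP against WT GFP.

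Core histones form the octamer around which DNA is wrapped, with a pair each of H2A, H2B, H3 and H4, and linker histones of class H1 bind the DNA where it enters and leaves that particle. Most histone mRNAs of the clusters are made in S phase, when new DNA has to be packaged, and they are the only known animal mRNAs that end in a conserved stem-loop and not in a poly(A) tail. The stem-loop is bound by SLBP, which takes part in processing, export and translation of these mRNAs. Many cluster genes can also give transcripts that run past the stem-loop and are polyadenylated, and this form is known from differentiated and non-dividing cells. The labels name a TruSeq stranded RNA kit without saying whether RNA was selected by poly(A) or depleted of ribosomal RNA. In a bulk sample fewer cells in S phase and less histone RNA per cell cannot be told apart.

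The stem-loops are shown because they are the feature that sets these mRNAs apart from all others. In the transcripts of GENCODE M21 (GRCm38) a stem of 6 paired bases was searched after the stop codon on the sense strand. Its first arm is GGNNNT, its loop of 4 bases is TNTN and its other arm, pairing with the first, is ANNNCC. It was found in 30 of the 37 genes, 24 to 54 bases after the stop codon, in 7 forms. Of all 22527 genes with a coding transcript, 51 (0.226%) held it within 100 bases of the stop codon, and 46 of those 51 are named as histone genes of the clusters. Each form is shown once, with the 16 bases of the stem-loop in capitals and the next bases on either side in lower case, as RNA-sense DNA letters.
Hist1h1c: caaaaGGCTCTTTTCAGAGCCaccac
Hist1h3e: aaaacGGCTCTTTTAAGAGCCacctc
Hist1h3g: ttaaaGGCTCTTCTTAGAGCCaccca
Hist1h4h: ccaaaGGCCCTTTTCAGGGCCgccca
Hist1h4i: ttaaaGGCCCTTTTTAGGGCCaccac
Hist1h4a: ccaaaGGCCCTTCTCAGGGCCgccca
Hist1h4j: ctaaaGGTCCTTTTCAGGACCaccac
The form of Hist1h1c was held by 15 genes of classes H1, H2A, H2B and H3, and that of Hist1h3e by 4 H2B and H3 genes. The form of Hist1h4h was held by 6 genes, all of class H4, and that of Hist1h4i by 2, the other being Hist2h4. The remaining 3 forms belonged to 1 gene each. Among the 7 genes without a match, nothing is annotated after the stop codon in 4 (Hist1h4k, Hist1h2bn, Hist1h1b and Hist1h3i), so in them the search had no sequence to read. The other 3 were Hist1h2bc, Hist1h1a and Hist2h2be.

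By class, 5 of 6 H1 genes, 4 of 18 H2A, 9 of 18 H2B, 8 of 12 H3 and 11 of 13 H4 genes were reported. By place, 32 of 54 genes of Hist1 on chromosome 13, 3 of 10 of Hist2 on chromosome 3, 1 of 2 of Hist3 on chromosome 11 and the 1 gene of Hist4 on chromosome 6 were reported. The 32 Hist1 genes lie between positions 21735064 and 23764406 of GRCm38, a stretch of 2.03 Mb. Of the 37 genes, 21 had 10 or more counts in all 24 libraries and 16 in fewer, and 4 of these had a group in which no library reached 10, so counts over the 37 are descriptions. The genes just inside the limit were Hist4h4, with 10 or more counts in 3 libraries and 137 counts in all, and Hist1h2bp, with 8 libraries and 195 counts. Just outside were Hist1h2ae and Hist1h2af, with 2 libraries each and 128 and 84 counts. Of the 30 genes not reported, 8 had no count at all. Hist1h2bm and Hist1h2bh are among these 8 because they are absent from the deposited counts, so they were not measured. A gene with a near-identical copy can lose reads in counting: in 5 of the 30 no stretch of 50 bases was unique among transcripts, and all 5 had no count. Among the 37, 13 had under 50% unique stretches of that length, down to 10.2% in Hist1h4m, and the values of those 13 are uncertain for this reason.

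The counts of histone cluster genes were dominated by 2 genes. How far these counts hold mRNAs that end in the stem-loop was not tested. A set of 18 short RNAs known to lack a poly(A) tail summed to 0.87 to 2.80 CPM, and 5 of them had no count in any library. The list of 20 such RNAs also holds the long RNAs Malat1 and Neat1, which were left out of this sum. Malat1 stood at 298 to 663 CPM and Neat1 at 105 to 187 CPM. Levels below are those of the RNA that was counted. Over the 24 libraries the 37 genes had 152239 counts, and 104529 of these (68.7%) fell on Hist1h1c, a linker histone gene at chr13:23738808-23740367, and Hist1h2bc, an H2B gene at chr13:23684199-23692908. The mean over all libraries was at least 1 CPM in 13 genes and below it in 24, with a median of 0.55 CPM. Per kb of exon length, Hist1h2bc stood at 45.1 CPM and Hist1h1c at 37.3, followed by the H4 gene Hist1h4i with 12.1, the H3 gene Hist1h3b with 7.87, the H4 gene Hist1h4h with 6.74 and the H3 gene Hist2h3c2 with 2.74. At the low end were Hist1h2ac, an H2A gene, with 0.098 CPM per kb and Hist4h4, an H4 gene, with 0.052. The highest level per kb was 873 times the lowest. Such levels depend on how far the annotation runs past the stem-loop. In Hist4h4 it does so for 2445 of 2863 bases. Among the 4 reported genes of H2A, which pairs with H2B in the octamer, the highest level was 1.76 CPM per kb, in Hist1h2ab. The class has 18 genes by name. In those not reported the unique share of stretches of 50 bases ran from 0% in Hist2h2aa1 to 76.2% in Hist1h2aa. Reads of H2A genes may thus have been lost in counting, and the level of the class is uncertain. Of the stretches of 50 bases 42.0% were unique in Hist1h2ab and 85.9% in Hist1h2ac.

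**Figure D1:**
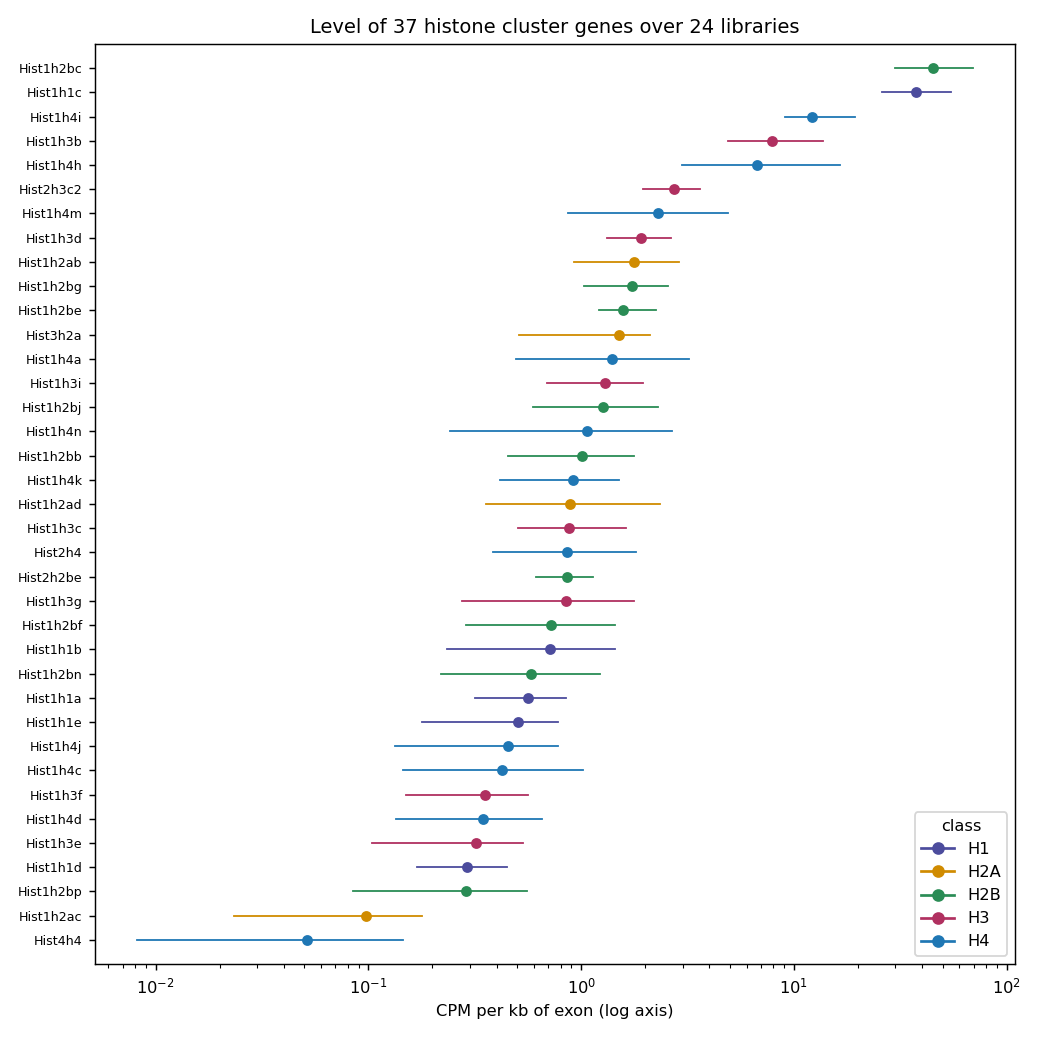
Mean level of each of the 37 histone cluster genes over the 24 libraries (CPM per kb of exon length, log axis), by histone class, with lines from the lowest to the highest library. A library at 0 cannot be drawn on this axis. Hist1h2bc (45.1) and Hist1h1c (37.3) stand above all others, and Hist1h2ac (0.098) and Hist4h4 (0.052) lie lowest.

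The pair of Hist1h2ac and Hist1h2bc shows a wide spread between neighbouring genes. H2A and H2B genes often lie head to head and share the stretch between their starts. Head-to-head neighbours of any class, with starts at most 1000 bases apart, made up 13 pairs among the 67 genes, with gaps of 175 to 659 bases. The pair with the gap of 659 bases, Hist1h2bh and Hist1h3f, joins an H2B and an H3 gene. All others join an H2A and an H2B gene. Both genes were reported in 2 pairs. Hist1h2bf and Hist1h2ad had like levels of 0.72 and 0.88 CPM per kb. Hist1h2ac and Hist1h2bc, with 250 bases between them, had 0.098 and 45.1 CPM per kb, a 462-fold difference. Part of it comes from their annotated exon lengths of 2482 and 1156 bases. Without scaling by length their means were 0.24 and 52.1 CPM. The 300 bases below span this gap, read on the strand of Hist1h2ac at chr13:23683910-23684209 (minus strand), from the RefSeq promoter table of GRCm38.p6, where the gene is called H2ac6. They are shown because both genes start from this one stretch. Capitals mark the CCAAT box, the TATAAA box and the octamer ATTTGCAT on either strand, which is why some of them read as the reverse complement.
Hist1h2ac: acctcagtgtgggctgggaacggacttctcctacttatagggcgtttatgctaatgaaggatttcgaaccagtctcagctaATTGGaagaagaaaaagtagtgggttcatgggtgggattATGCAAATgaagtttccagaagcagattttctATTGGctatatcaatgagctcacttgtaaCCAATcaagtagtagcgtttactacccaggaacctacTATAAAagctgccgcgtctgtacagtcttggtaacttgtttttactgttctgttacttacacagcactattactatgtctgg
A promoter was matched for 33 of the 37 genes. A gene was counted if any of its promoters of 300 bases held the motif. CCAAT was in 26 of these 33 genes (78.8%) and in 41.1% of all 27025 genes with a promoter. TATAAA, the core of the TATA box, was in 22 (66.7%) against 15.7%, and ATTTGCAT, the octamer known from H2B promoters, in 6 (18.2%) against 2.0%. ACGTG, the core of the element bound by hypoxia-inducible factors, was in 9 (27.3%) against 21.8%. All 4 were searched on both strands and do not contain each other, and a match is a description of letters, not of binding.

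Of the 37 genes, 14 were higher in Cre than in GFP libraries of Vhl cells and 11 in those of Vhl/Rassf1a cells, while in WT and Rassf1a cells none passed the test. Of all genes tested, 17.4% were higher in Vhl and 14.9% in Vhl/Rassf1a cells. In WT cells the edgeR quasi-likelihood test called 0 of the 37 genes at an adjusted p under 0.05, beside 0.833% of all 16573 genes tested called higher and 0.428% called lower. DESeq2 also called 0, and 1 gene, Hist2h3c2, had an unadjusted p under 0.05. Without the library WT GFP 2 edgeR called Hist2h3c2 higher in WT Cre (log2 fold change 0.66, adjusted p = 0.0195). The median log2 fold change of the 37 was 0.05, with 0.00 over all genes. In Rassf1a cells edgeR called 0, DESeq2 called 0 and 0 genes had an unadjusted p under 0.05, beside 0.187% of all genes called higher and 0.205% lower, and the median was -0.04.

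In Vhl cells edgeR called 14 of the 37 genes higher in Cre than in GFP, beside 17.4% of all genes tested called higher and 18.7% called lower. The median log2 fold change was 0.62, against -0.01 over all genes, and 30 of the 37 were above 0. In 22 genes all 3 Cre libraries were above all 3 GFP libraries, which held for 25.2% of all genes. By class the calls were 3 of 5 H1, 1 of 4 H2A, 2 of 9 H2B, 1 of 8 H3 and 7 of 11 H4 genes, with medians of 0.55, 0.68, 0.46, 0.31 and 0.84. Of the 13 genes with a mean of at least 1 CPM, 8 rose, with a median of 0.46, and of the 24 below it 6 rose, with a median of 0.70. Rises of 2-fold or more were seen in 6 genes (Hist1h4a, Hist1h4j, Hist1h4m, Hist1h1b, Hist1h2ac and Hist2h4), beside 4.56% of all genes. The call held under every alternative tried in 8 of the 14: Hist1h1c, Hist1h2bc, Hist1h2be, Hist1h3b, Hist1h4a, Hist1h4i, Hist1h4m and Hist2h4. DESeq2 called 12.

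In Vhl/Rassf1a cells 11 of the 37 genes were called higher and none lower, beside 14.9% of all genes called higher and 14.8% called lower. The median was 0.50, against 0.00 over all genes, and 32 genes were above 0. The libraries did not overlap, with Cre higher, in 17 genes and in 19.8% of all genes. The calls were 1 H1, 1 H2A, 4 H2B, 1 H3 and 4 H4 genes, and the median of the 11 H4 genes was 0.56. Of the 13 genes with at least 1 CPM 7 rose. Among the called genes Hist1h2bn, Hist1h4c and Hist1h4a reached 2-fold, at log2 fold changes of 1.50, 1.37 and 1.02, beside 3.61% of all genes. Without Vhl/Rassf1a GFP 1 only 1 gene did. Hist1h2bn and Hist1h4c were low, with 210 and 333 counts over the 24 libraries. Hist1h2bn stood at 0.090, 0.12 and 0.083 CPM in GFP and 0.25, 0.29 and 0.32 in Cre, with 13.6% unique stretches of 50 bases. Hist1h4c stood at 0.12, 0.26 and 0.19 CPM in GFP and 0.70, 0.52 and 0.30 in Cre. DESeq2 called 12, and without Rassf1a GFP 1 and Vhl/Rassf1a GFP 2, an alternative chosen after seeing the data, edgeR called 10. The call held under every alternative in 5 of the 11: Hist1h2bc, Hist1h2be, Hist1h3d, Hist1h4a and Hist1h4i.

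The Vhl and Vhl/Rassf1a comparisons share no library, and 6 genes rose in both: Hist1h1c, Hist1h2bc, Hist1h2be, Hist1h4a, Hist1h4i and Hist1h4m. They are 42.9% of the 14 and 54.5% of the 11. Over all genes 1775 were higher in both, 61.5% of those of Vhl cells and 72.0% of those of Vhl/Rassf1a cells.

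**Figure D2:**
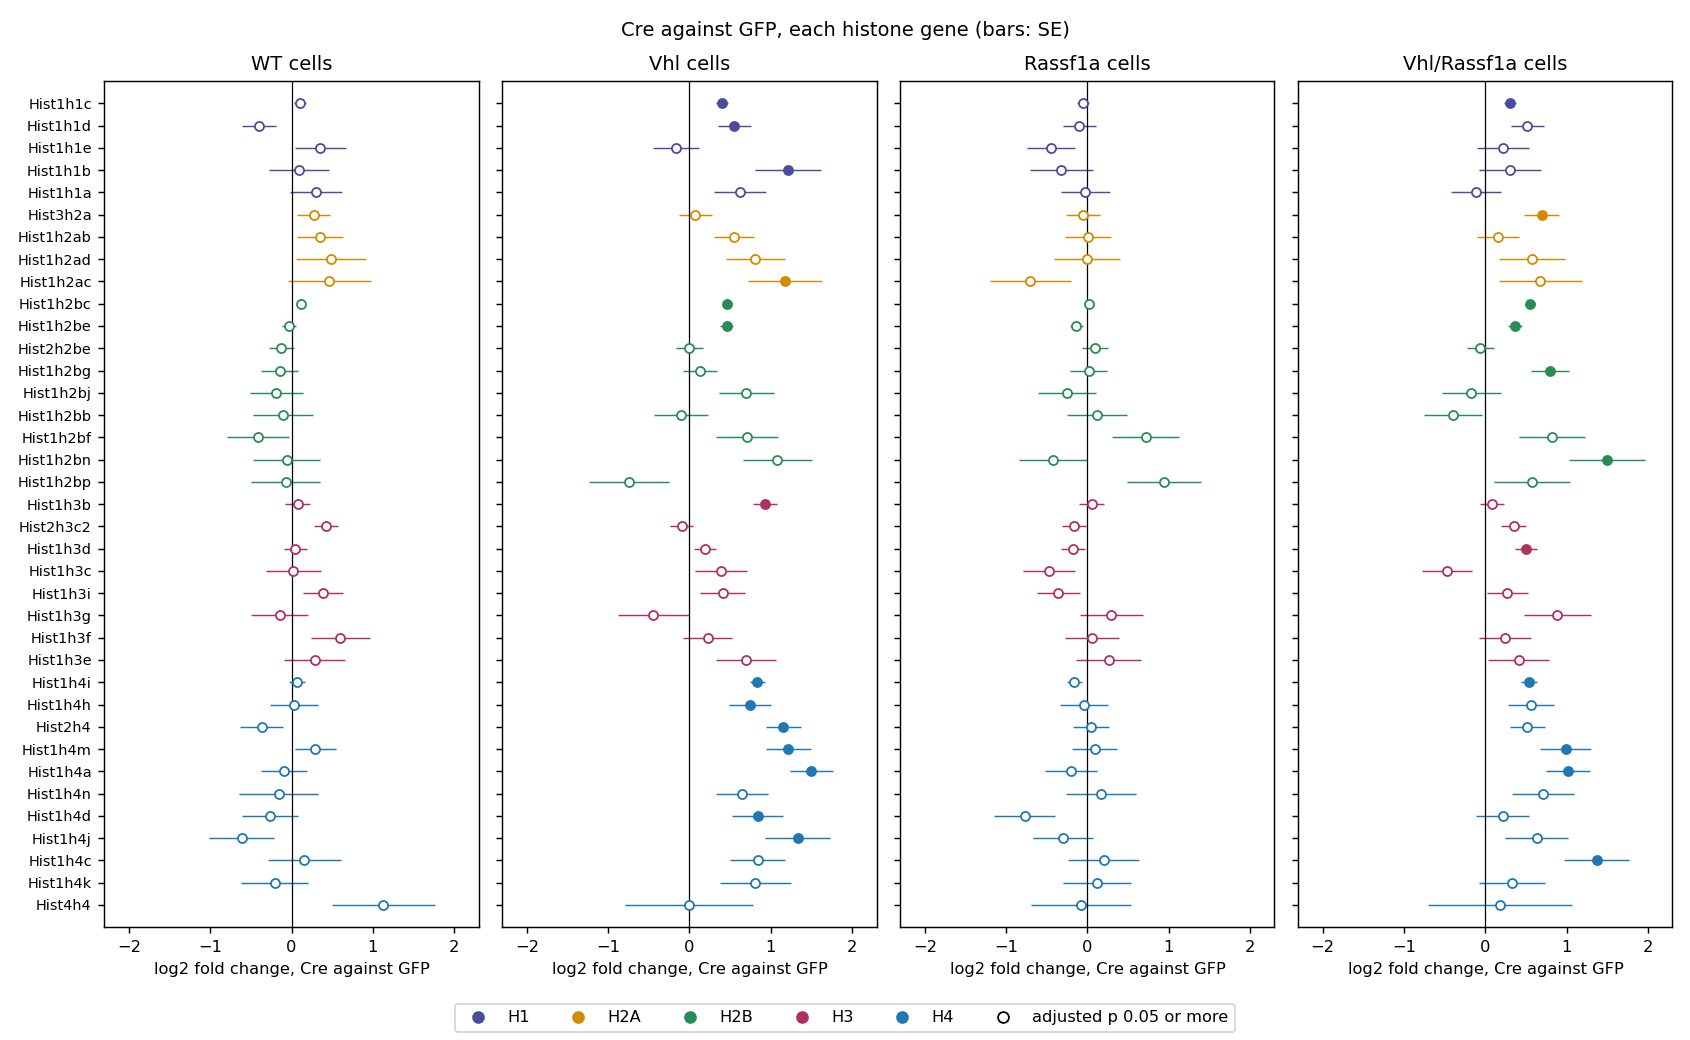
Log2 fold change of Cre against GFP for each of the 37 genes in the 4 genotypes (points, with bars of 1 SE of the edgeR fit), filled where the adjusted p was under 0.05. No point is filled in WT and Rassf1a cells, while 14 are filled in Vhl and 11 in Vhl/Rassf1a cells, all to the right of 0.

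The linker histone genes rose by less than 1.5-fold where their RNA was abundant. Hist1h1c, which held most linker histone counts, stood at 61.9, 63.9 and 62.5 CPM in the Vhl GFP libraries 1 to 3 and at 80.4, 85.4 and 82.8 in Vhl Cre. The GFP and Cre libraries of Vhl/Rassf1a cells stood at 40.5, 51.7 and 49.4 and at 57.9, 58.2 and 58.4 CPM. WT cells had 53.0, 54.1 and 52.6 in GFP and 51.6, 61.2 and 58.9 in Cre, and Rassf1a cells 56.9, 53.4 and 49.1 in GFP and 52.0, 51.7 and 49.9 in Cre. Cre and GFP were apart in Vhl and Vhl/Rassf1a cells and overlapped in the other genotypes. The log2 fold change was 0.40 (SE 0.07, adjusted p = 8.86e-05) in Vhl and 0.30 (SE 0.07, adjusted p = 0.00245) in Vhl/Rassf1a cells, and the second call was lost in a fit of only these 2 groups (adjusted p = 0.0549).

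Hist1h1d, a linker histone gene at chr13:23553262-23560686, stood at 2.00, 2.02 and 2.06 CPM in Vhl GFP and at 2.87, 2.76 and 3.34 in Vhl Cre. Values of Vhl/Rassf1a cells were 1.26, 1.89 and 2.22 CPM in GFP and 2.34, 2.99 and 2.45 in Cre. Its WT levels were 1.87, 2.05 and 3.29 in GFP and 1.54, 1.95 and 1.84 in Cre, and its Rassf1a levels 1.69, 1.83 and 2.16 in GFP and 1.66, 1.44 and 2.15 in Cre. WT GFP 3 was the highest GFP library, and Cre lay above GFP without overlap only in Vhl and Vhl/Rassf1a cells. Cre against GFP gave a log2 fold change of 0.55 (SE 0.20, adjusted p = 0.0315) in Vhl and 0.52 (SE 0.20, adjusted p = 0.0577) in Vhl/Rassf1a cells. The call in Vhl cells was lost without Vhl GFP 1, 2 or 3 (adjusted p of 0.0718, 0.0707 and 0.066) and without Vhl Cre 1 or 3 (0.0522 and 0.111). In Vhl/Rassf1a cells Hist1h1d was called with the replicate block (adjusted p = 0.0195), by DESeq2 (0.0433), without the filter on low counts (0.0319) and without Vhl/Rassf1a GFP 3 (0.0244).

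Hist1h1b, a linker histone gene at chr13:21779883-21780625, was low, at 0.17, 0.18 and 0.49 CPM in Vhl GFP and 0.53, 0.96 and 0.52 in Vhl Cre, which is 6 to 41 counts per library. The Vhl/Rassf1a values were 0.54, 0.56 and 0.31 in GFP and 0.57, 0.43 and 0.72 in Cre. The WT values were 0.48, 0.76 and 0.64 in GFP and 0.43, 1.07 and 0.47 in Cre, and the Rassf1a values 0.58, 0.48 and 0.59 in GFP and 0.32, 0.49 and 0.50 in Cre. Cre and GFP were apart only in Vhl cells, where Vhl GFP 1 and 2 were the lowest of all 24 libraries. The log2 fold change there was 1.21 (SE 0.41, adjusted p = 0.0239), and the call was lost without Vhl GFP 1 (adjusted p = 0.0999), Vhl GFP 2 (adjusted p = 0.107) or Vhl Cre 2 (0.85, adjusted p = 0.175). Without Vhl GFP 3 the log2 fold change of Hist1h1b was 1.92 (adjusted p = 0.00368). Hist1h1e and Hist1h1a were not called in any of the 4 genotypes, with log2 fold changes of -0.17 and 0.62 in Vhl and 0.21 and -0.12 in Vhl/Rassf1a cells.

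Of the 4 H2A genes, Hist3h2a at chr11:58954685-58956830 had the most counts. It was at 4.15, 3.85 and 3.43 CPM in Vhl GFP and 4.51, 3.79 and 3.65 in Vhl Cre. The Vhl/Rassf1a GFP libraries had 2.27, 1.10 and 2.66 CPM and the Cre libraries 3.68, 3.07 and 2.79. The WT libraries gave 3.57, 3.18 and 2.82 in GFP and 3.86, 3.93 and 3.85 in Cre, and the Rassf1a libraries 2.12, 3.39 and 3.51 in GFP and 2.79, 2.57 and 3.35 in Cre. Cre and GFP did not overlap in WT and Vhl/Rassf1a cells, and Vhl/Rassf1a GFP 2, one of the libraries that stand apart with GC content, was the lowest of all. On the log2 scale the difference was 0.69 (SE 0.22, adjusted p = 0.0208) in Vhl/Rassf1a cells, where it was 0.37 (adjusted p = 0.146) without Vhl/Rassf1a GFP 2, and was 0.27 (SE 0.21, adjusted p = 0.878) in WT cells. The call was also lost without Vhl/Rassf1a Cre 1 (adjusted p = 0.112), in a fit of only these groups (0.141) and without both libraries that stand apart with GC content (0.0653). The gene lies within Trim17 on the same strand, which had 379 counts in all beside 3082 of Hist3h2a, so reads of the 2 genes may have been confused.

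Hist1h2ab at chr13:23751126-23751598 was at 0.52, 1.01 and 1.13 CPM in Vhl GFP and 1.37, 1.33 and 1.24 in Vhl Cre. Its Vhl/Rassf1a levels were 0.87, 0.58 and 1.00 CPM with GFP and 0.83, 1.12 and 0.78 with Cre. For WT cells the values were 0.60, 0.81 and 0.54 in GFP and 0.97, 0.78 and 0.75 in Cre, and for Rassf1a cells 0.44, 0.66 and 0.78 in GFP and 0.50, 0.80 and 0.62 in Cre. The groups were apart only in Vhl cells, and the difference there, 0.55 on the log2 scale (SE 0.25, adjusted p = 0.0896), did not pass the threshold, except without Vhl GFP 3 (0.77, adjusted p = 0.0421).

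Hist1h2ac, the lowly expressed partner of Hist1h2bc, was at 0.32, 0.18 and 0.094 CPM in Vhl GFP and 0.43, 0.44 and 0.43 in Vhl Cre, from 4 to 19 counts. Cells labelled Vhl/Rassf1a stood at 0.27, 0.093 and 0.14 CPM in GFP and 0.30, 0.29 and 0.19 in Cre. WT cells had 0.21, 0.13 and 0.24 in GFP and 0.20, 0.39 and 0.20 in Cre, and Rassf1a cells 0.058, 0.37 and 0.36 in GFP and 0.18, 0.10 and 0.20 in Cre. Only the Vhl groups were apart. The fitted log2 change was 1.17 (SE 0.46, adjusted p = 0.0488) in Vhl cells, and the call was lost without Vhl GFP 2 or 3 (adjusted p of 0.109 and 0.216), without Vhl Cre 1, 2 or 3 (0.0877, 0.0979 and 0.0829), with DESeq2 (0.0637), without the filter on low counts (0.0541) and with a replicate block (0.0639). Its locus also shares 108 bases with a ribosomal RNA copy on the same strand that had 315 counts.

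Hist1h2ad at chr13:23574381-23574952 was at 0.46, 0.78 and 0.31 CPM in Vhl GFP and 1.34, 0.61 and 0.75 in Vhl Cre. Vhl/Rassf1a cells had 0.33, 0.26 and 0.50 CPM in GFP and 0.47, 0.49 and 0.63 in Cre. Its WT levels were 0.21, 0.43 and 0.47 in GFP and 0.46, 0.57 and 0.47 in Cre, and its Rassf1a levels 0.38, 0.53 and 0.40 in GFP and 0.63, 0.21 and 0.46 in Cre. All 4 pairs of groups overlapped, and none passed the test (0.81, SE 0.36, adjusted p = 0.0874 in Vhl cells). The Vhl difference passed it without Vhl GFP 2 (1.25, adjusted p = 0.0234) and without Vhl Cre 2 (1.05, adjusted p = 0.0414).

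Among the H2B genes, Hist1h2bc was the most abundant and rose in both Vhl and Vhl/Rassf1a cells. It stood at 54.1, 60.5 and 54.3 CPM in Vhl GFP and at 80.7, 76.9 and 75.4 in Vhl Cre. The GFP and Cre libraries of Vhl/Rassf1a cells stood at 37.5, 40.8 and 34.4 and at 53.4, 56.7 and 55.1 CPM. The WT libraries gave 48.4, 47.8 and 49.3 in GFP and 53.5, 51.3 and 52.5 in Cre, and the Rassf1a libraries 44.8, 44.6 and 43.9 in GFP and 47.2, 43.3 and 44.4 in Cre. Cre was above GFP without overlap in Vhl, Vhl/Rassf1a and WT cells. The log2 fold change was 0.46 (SE 0.06, adjusted p = 6e-07) in Vhl, 0.55 (SE 0.06, adjusted p = 1e-07) in Vhl/Rassf1a and 0.11 (SE 0.06, adjusted p = 0.605) in WT cells, so that the WT difference did not pass the test. The Vhl/Rassf1a Cre libraries lay at the level of the Vhl GFP libraries, and the GFP libraries of Vhl/Rassf1a cells lay below those of Vhl cells without overlap.

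Hist1h2be at chr13:23583670-23621124 stood at 6.85, 7.42 and 6.69 CPM in Vhl GFP and at 10.0, 9.26 and 9.47 in Vhl Cre. Values of Vhl/Rassf1a cells were 6.25, 5.38 and 6.38 CPM in GFP and 7.90, 7.78 and 7.50 in Cre. For WT cells the values were 6.66, 6.48 and 6.66 in GFP and 6.34, 6.63 and 6.41 in Cre, and for Rassf1a cells 5.58, 7.18 and 6.71 in GFP and 6.07, 5.75 and 5.94 in Cre. The Vhl and Vhl/Rassf1a groups were apart, and the others overlapped. Cre against GFP gave a log2 fold change of 0.46 (SE 0.08, adjusted p = 0.000123) in Vhl and 0.37 (SE 0.08, adjusted p = 0.00187) in Vhl/Rassf1a cells. Its annotation runs through 496 bases of Hist1h1e on the same strand, so part of its reads may belong to that linker histone gene. In Vhl/Rassf1a cells Hist1h2bn and Hist1h2bg also rose, by 1.50 (SE 0.47, adjusted p = 0.0175) and 0.79 (SE 0.23, adjusted p = 0.0124), beside 1.08 (adjusted p = 0.0518) and 0.13 (adjusted p = 0.676) in Vhl cells. The call of Hist1h2bn was lost without Vhl/Rassf1a GFP 3 or Cre 3 (adjusted p of 0.0544 and 0.0594) and that of Hist1h2bg without Vhl/Rassf1a Cre 3 (0.0665). Hist1h2bn was called in Vhl cells with offsets for GC content (adjusted p = 0.0235), with these and the replicate block (0.024) and without Vhl Cre 1 (0.0265).

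**Figure D3:**
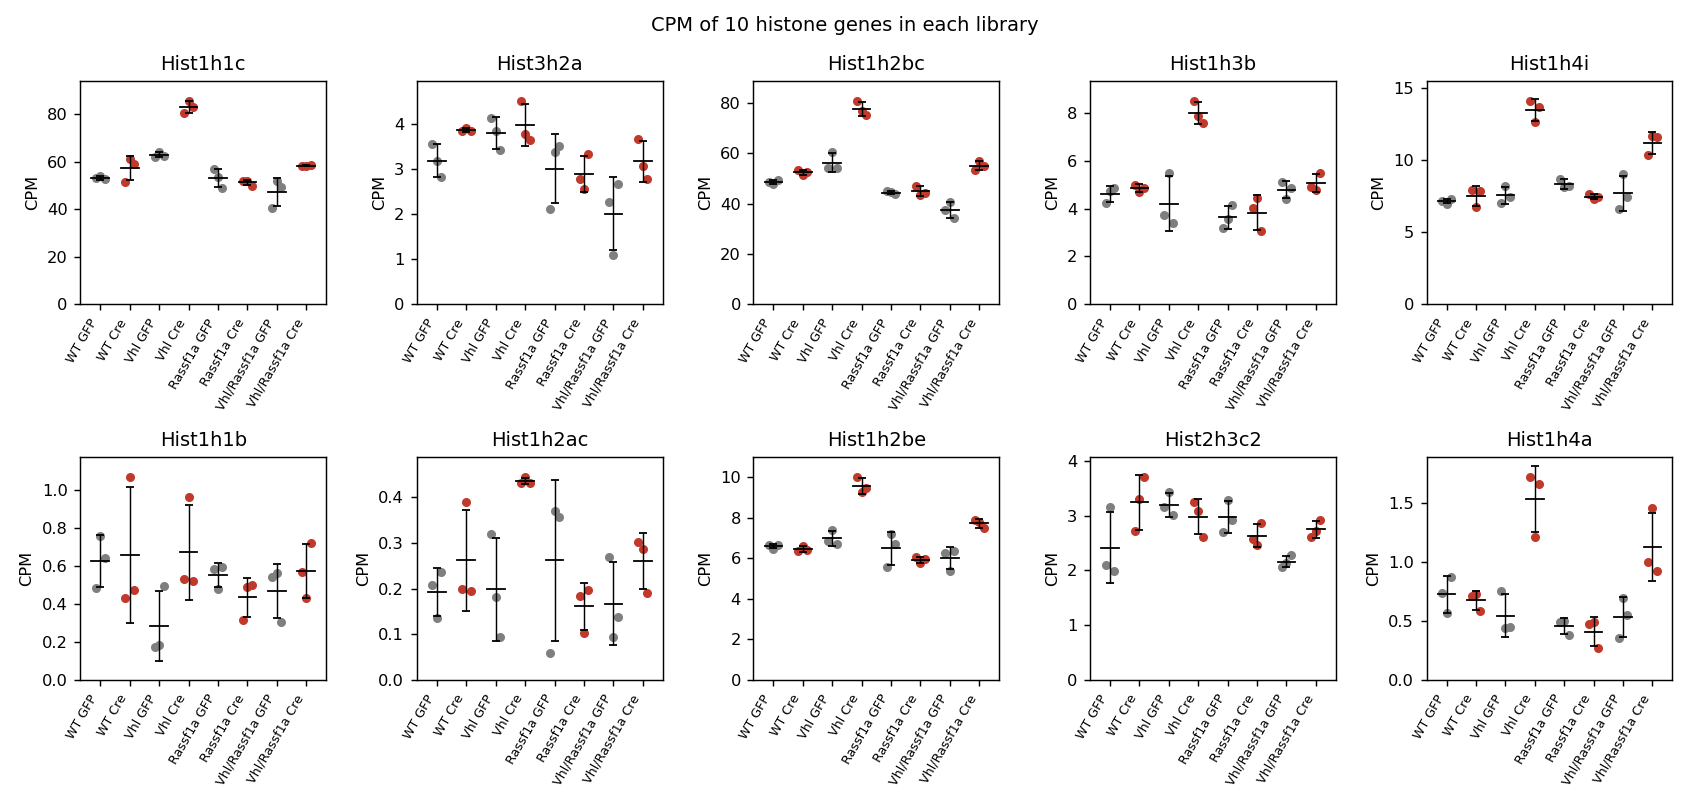
CPM of 10 histone genes in each library (points, grey for GFP and red for Cre), by genotype, with a line at the mean of each group and bars of 1 SD (n = 3). The Cre points of Hist1h1c, Hist1h2bc, Hist1h2be, Hist1h4i and Hist1h4a lie above the GFP points in Vhl and in Vhl/Rassf1a cells, while those of Hist1h3b do so in Vhl cells alone.

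Hist1h3b was the 1 gene called in the test of whether the effect of Cre differed between Vhl and Vhl/Rassf1a cells. This H3 gene at chr13:23752267-23752886 stood at 3.75, 5.51 and 3.38 CPM in Vhl GFP and at 8.50, 7.88 and 7.60 in Vhl Cre. The Vhl/Rassf1a GFP libraries had 5.12, 4.40 and 4.88 CPM and the Cre libraries 4.91, 4.80 and 5.49. WT cells had 4.24, 4.75 and 4.87 in GFP and 5.00, 4.68 and 4.88 in Cre, and Rassf1a cells 3.20, 3.58 and 4.15 in GFP and 4.02, 4.44 and 3.04 in Cre. The 3 Vhl Cre libraries were the highest of the 24, and Cre and GFP overlapped in the other genotypes. On the log2 scale the difference was 0.93 (SE 0.14, adjusted p = 2.06e-05) in Vhl and 0.08 (SE 0.15, adjusted p = 0.726) in Vhl/Rassf1a cells. The difference of these effects, Vhl/Rassf1a minus Vhl, was -0.84 (SE 0.21, adjusted p = 0.0146), the call held under every alternative, and 2.65% of all genes were lower in this comparison and 3.44% higher. Since 39.6% of its stretches of 50 bases were unique, reads of other H3 genes may have been lost or gained.

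Hist2h3c2 at chr3:96238108-96239127, an H3 gene of the Hist2 cluster, was at 3.16, 3.44 and 3.00 CPM in Vhl GFP and 3.25, 3.09 and 2.62 in Vhl Cre. Its Vhl/Rassf1a levels were 2.06, 2.14 and 2.27 CPM with GFP and 2.61, 2.73 and 2.92 with Cre. Its WT levels were 2.10, 3.16 and 1.98 in GFP and 2.71, 3.30 and 3.71 in Cre, and its Rassf1a levels 2.70, 3.29 and 2.92 in GFP and 2.58, 2.46 and 2.86 in Cre. Only the Vhl/Rassf1a groups were apart, and no genotype passed the test (-0.10, SE 0.14, adjusted p = 0.655 in Vhl, 0.35, SE 0.15, adjusted p = 0.0908 in Vhl/Rassf1a and 0.42, SE 0.15, adjusted p = 0.269 in WT cells). In Vhl cells, where Hist1h3b rose, its libraries overlapped.

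Hist1h3e at chr13:23561534-23562369 was at 0.23, 0.28 and 0.16 CPM in Vhl GFP and 0.33, 0.44 and 0.32 in Vhl Cre, from 7 to 19 counts. Cells labelled Vhl/Rassf1a stood at 0.18, 0.28 and 0.22 CPM in GFP and 0.40, 0.17 and 0.32 in Cre. The WT libraries gave 0.25, 0.27 and 0.27 in GFP and 0.43, 0.18 and 0.36 in Cre, and the Rassf1a libraries 0.087, 0.29 and 0.21 in GFP and 0.29, 0.21 and 0.23 in Cre. The Vhl groups were apart, and the log2 fold change of 0.69 (SE 0.37, adjusted p = 0.152) was not called. Hist1h3d, the other H3 gene called in one genotype, rose by 0.50 (SE 0.14, adjusted p = 0.00811) in Vhl/Rassf1a cells and stood at 0.19 (SE 0.14, adjusted p = 0.288) in Vhl cells.

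H4 genes held 7 of the 14 calls of Vhl cells. Hist1h4i at chr13:22040636-22041362, the H4 gene with the most counts, stood at 7.03, 8.22 and 7.41 CPM in Vhl GFP and at 14.1, 12.6 and 13.7 in Vhl Cre. Vhl/Rassf1a cells had 6.61, 9.02 and 7.46 CPM in GFP and 10.3, 11.7 and 11.6 in Cre. For WT cells the values were 7.19, 6.99 and 7.33 in GFP and 7.91, 6.74 and 7.89 in Cre, and for Rassf1a cells 8.72, 8.14 and 8.21 in GFP and 7.68, 7.31 and 7.42 in Cre. Cre was above GFP without overlap in Vhl and Vhl/Rassf1a cells and below it without overlap in Rassf1a cells, where the test was not passed (-0.16, SE 0.10, adjusted p = 0.895). The fitted log2 change was 0.83 (SE 0.09, adjusted p = 2.19e-07) in Vhl and 0.54 (SE 0.09, adjusted p = 0.000123) in Vhl/Rassf1a cells.

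Hist1h4a at chr13:23760692-23761230 was at 0.75, 0.44 and 0.45 CPM in Vhl GFP and 1.72, 1.22 and 1.67 in Vhl Cre. The GFP and Cre libraries of Vhl/Rassf1a cells stood at 0.36, 0.70 and 0.55 and at 1.00, 1.46 and 0.93 CPM. WT cells had 0.74, 0.57 and 0.87 in GFP and 0.71, 0.73 and 0.59 in Cre, and Rassf1a cells 0.49, 0.50 and 0.38 in GFP and 0.47, 0.49 and 0.27 in Cre. The 6 Cre libraries of Vhl and Vhl/Rassf1a cells were the 6 highest of the 24. The rise was 2.83-fold in Vhl cells (log2 fold change 1.50, SE 0.26, adjusted p = 7.65e-05), the largest of the 37 genes, and 2.03-fold in Vhl/Rassf1a cells (1.02, SE 0.27, adjusted p = 0.0056).

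Hist1h4h at chr13:23531050-23531519 was at 3.11, 4.50 and 3.54 CPM in Vhl GFP and 5.93, 5.10 and 7.71 in Vhl Cre. Values of Vhl/Rassf1a cells were 1.41, 2.89 and 2.36 CPM in GFP and 3.14, 4.02 and 2.89 in Cre. Its WT levels were 1.43, 2.54 and 3.66 in GFP and 1.91, 2.50 and 3.18 in Cre, and its Rassf1a levels 3.00, 2.01 and 2.23 in GFP and 2.81, 1.72 and 2.44 in Cre. Its spread within groups was wide, and Cre exceeded GFP without overlap in Vhl cells and in Vhl/Rassf1a cells, in the latter with 2.894 against 2.889 CPM at the nearest libraries. The log2 fold change was 0.74 (SE 0.26, adjusted p = 0.0271) in Vhl and 0.56 (SE 0.28, adjusted p = 0.147) in Vhl/Rassf1a cells, and the first was lost without Vhl GFP 1 or 3 (adjusted p of 0.105 and 0.0811) or Vhl Cre 3 (0.137). The second was called without the filter on low counts (adjusted p = 0.0054), with offsets for GC content (0.0409), with these and the replicate block (0.0305), and without both Rassf1a GFP 1 and Vhl/Rassf1a GFP 2 (0.81, adjusted p = 0.0351), the last chosen after seeing the data.

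The other H4 genes that rose in Vhl cells were Hist2h4 (1.15, SE 0.21, adjusted p = 0.000142), Hist1h4m (1.22, SE 0.27, adjusted p = 0.00106), Hist1h4j (1.33, SE 0.40, adjusted p = 0.0112) and Hist1h4d (0.84, SE 0.32, adjusted p = 0.043). Hist1h4j was not called without Vhl GFP 2 (1.03, adjusted p = 0.0669), and Hist1h4d was not called without Vhl GFP 1, 2 or 3 (adjusted p of 0.0846, 0.077 and 0.109) or Vhl Cre 1 or 2 (0.0903 and 0.175), by DESeq2 (0.0676) or without the filter on low counts (0.0963). In Hist1h4m, with 10.2% unique stretches, Vhl Cre 1 at 0.74 CPM lay below Vhl GFP 3 at 0.82. Hist1h4m stood at 0.39, 0.35 and 0.47 CPM in Vhl/Rassf1a GFP and 0.76, 0.78 and 0.87 in Vhl/Rassf1a Cre. Both groups lay below all WT libraries, at 1.04, 1.05 and 1.41 CPM in GFP and 1.51, 1.27 and 1.45 in Cre. In Vhl/Rassf1a cells Hist1h4m rose by 0.99 (SE 0.31, adjusted p = 0.0201) and Hist1h4c by 1.37 (SE 0.40, adjusted p = 0.0123). The first of these was lost without Vhl/Rassf1a GFP 2 or Cre 3 (adjusted p of 0.0744 and 0.0665) or both libraries that stand apart with GC content (0.0659), and the second without Vhl/Rassf1a GFP 1 or Cre 1 (0.0559 and 0.113) or in a fit of only these groups (0.061).

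Summed over the genes of a class, H4 RNA showed the highest ratio of Cre to GFP in Vhl cells, with 14.3 to 16.6 CPM under GFP and 26.6 to 30.5 under Cre, a ratio of means of 1.85. H4 in Vhl/Rassf1a cells was at 11.6 to 16.1 CPM under GFP and 19.5 to 22.1 under Cre, a ratio of 1.52, and in WT and Rassf1a cells the ratios were 1.01 and 0.93. The ratios in Vhl cells were 1.32 for H1, 1.23 for H2A and 1.36 for both H2B and H3. Those in Vhl/Rassf1a cells were 1.24 for H1, 1.46 for H2A, 1.42 for H2B and 1.18 for H3. All 37 genes together reached 230 to 236 CPM in the Cre libraries of Vhl cells, above 163 to 177 in GFP, and 166 to 172 in the Cre libraries of Vhl/Rassf1a cells, above 117 to 135 in GFP. In WT cells the sums were 152 to 163 CPM in Cre and 145 to 152 in GFP, and in Rassf1a cells 136 to 145 in Cre and 141 to 144 in GFP. Without Hist1h1c and Hist1h2bc the ratios were 1.48 in Vhl, 1.33 in Vhl/Rassf1a, 1.03 in WT and 0.94 in Rassf1a cells, so the gap was also there without the 2 most abundant genes. Each of these ratios lay on the same side of 1 when scaled by TMM, by the size factors of DESeq2 or by total counts.

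**Figure D4:**
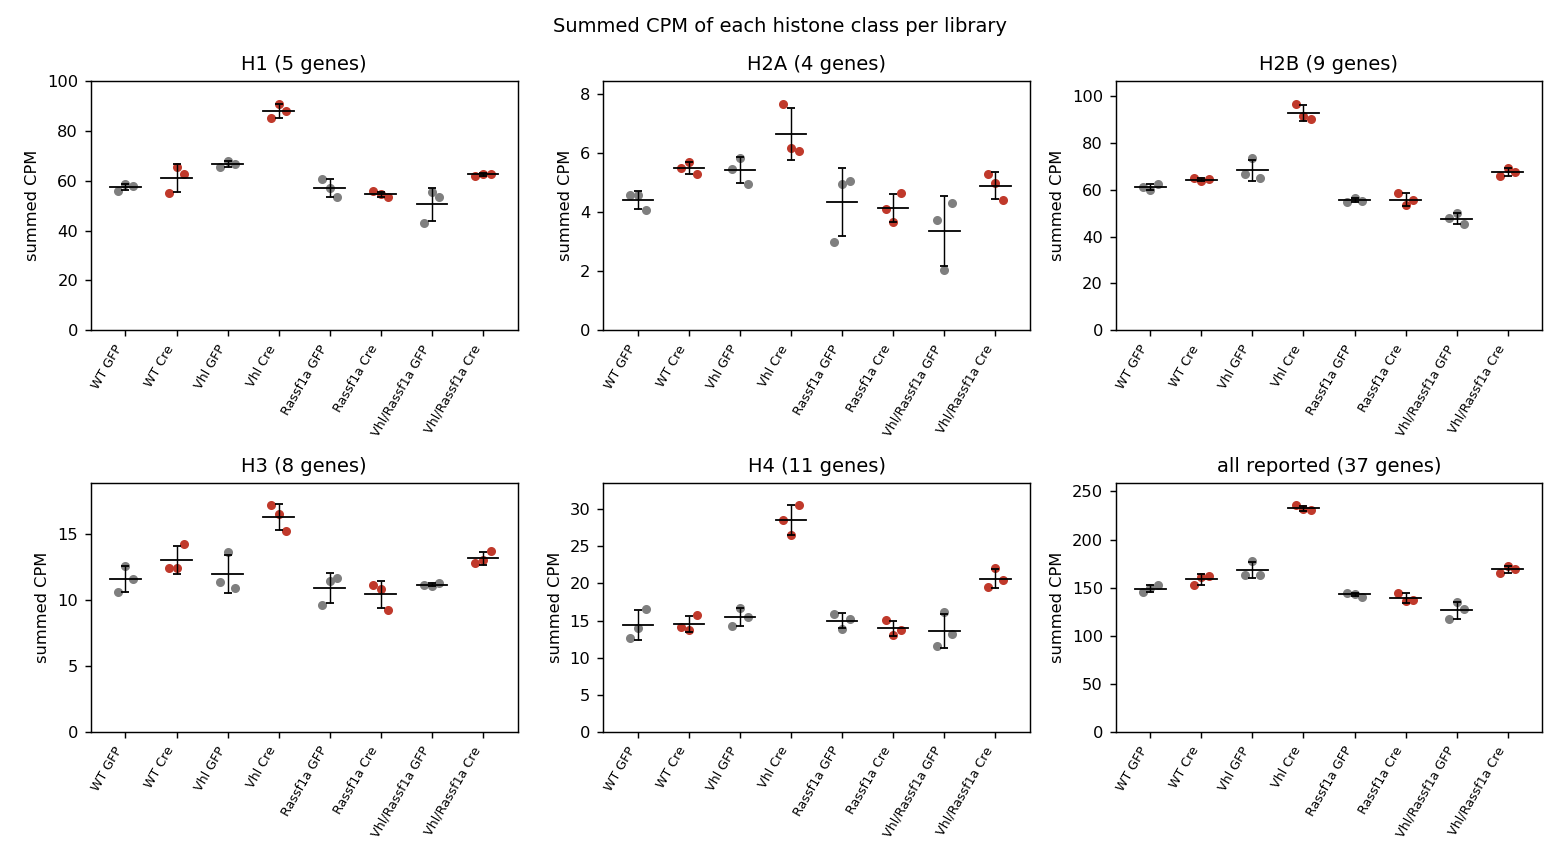
Summed CPM of the reported genes of each histone class, and of all 37, in each library (points, grey for GFP and red for Cre), by genotype, with a line at the group mean and bars of 1 SD (n = 3), on axes that start at 0. The H4 panel shows Vhl Cre at 26.6 to 30.5 CPM above every other library, with Vhl/Rassf1a Cre next at 19.5 to 22.1.

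Whether the effect of Cre differed between genotypes was tested directly. The effect was larger in Vhl than in WT cells for 9 of the 37 genes and smaller for none, beside 10.7% of all genes called larger and 12.5% smaller. The 9 were Hist1h4j, Hist1h4a, Hist2h4, Hist1h1d, Hist1h3b, Hist1h4i, Hist1h2be, Hist1h2bc and Hist1h1c, with differences from 1.94 down to 0.29 on the log2 scale, and the median over the 37 was 0.41. The call held under every alternative in 6 of them, all but Hist1h4j, Hist1h1d and Hist1h1c. Hist1h4j and Hist1h1d were lost without WT GFP 3 (adjusted p of 0.0535 and 0.0718), and Hist1h1c when any of 8 libraries was left out in turn (WT GFP 1, 2 or 3, WT Cre 1, Vhl GFP 1 or 3 and Vhl Cre 2 or 3), with adjusted p up to 0.118. In Vhl/Rassf1a cells the effect was larger than in WT cells for 4 genes, Hist1h1d, Hist1h4i, Hist1h2bc and Hist1h2be, beside 7.41% of all genes called larger and 7.4% smaller, and the call of Hist1h2bc alone held under every alternative. A fit of only the 4 groups compared left 2 calls here, as did leaving out WT GFP 3, WT Cre 1, WT Cre 3, Vhl/Rassf1a GFP 1, Vhl/Rassf1a Cre 2 or Vhl/Rassf1a Cre 3. Leaving out both Rassf1a GFP 1 and Vhl/Rassf1a GFP 2 gave 6. Between Rassf1a and WT cells edgeR and DESeq2 both called 0 genes, 1 had an unadjusted p under 0.05 (Hist2h3c2), and 0.00603% of all genes were called larger.

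The GFP libraries were also compared between genotypes, and the few histone genes called there are read against the shares of all genes. In Vhl GFP against WT GFP 4 genes were higher, Hist1h2bc (0.21, SE 0.06, adjusted p = 0.00512), Hist1h1c (0.24, SE 0.07, adjusted p = 0.0124), Hist1h4n (1.36, SE 0.40, adjusted p = 0.0116) and Hist2h3c2 (0.40, SE 0.15, adjusted p = 0.0427), beside 17.2% of all genes. Lower were 3, Hist1h4m (-0.92), Hist2h2be (-0.49) and Hist1h3g (-0.99), beside 14.9%, and each of these 7 calls was lost under at least 1 alternative. Without Vhl GFP 2, 3 were called. In Vhl/Rassf1a GFP against WT GFP none was higher and 4 were lower, Hist1h2bc (-0.37, SE 0.06, adjusted p = 7.13e-05), Hist1h4m (-1.52, SE 0.31, adjusted p = 0.00136), Hist1h3g (-1.46, SE 0.40, adjusted p = 0.0178) and Hist3h2a (-0.70, SE 0.22, adjusted p = 0.0463), beside 4.68% of all genes called lower and 6.86% higher. That of Hist3h2a was lost without Vhl/Rassf1a GFP 2 (-0.38, adjusted p = 0.249), and 2 genes were called without WT GFP 2 or without WT GFP 3. With offsets for GC content 7 were lower, and without both Rassf1a GFP 1 and Vhl/Rassf1a GFP 2 there were 4 calls. Hist1h2bc thus stood higher than WT in the GFP libraries of Vhl cells and lower in those of Vhl/Rassf1a cells. In Rassf1a GFP against WT GFP edgeR and DESeq2 called 0, and 6 had an unadjusted p under 0.05, beside 9.39% of all genes called higher and 6.68% lower. Without WT GFP 1 there was 1 call, and without WT GFP 2 or Rassf1a GFP 3 there were 2. These 3 comparisons share the WT GFP libraries, and cultures and genotypes cannot be told apart in them.

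What the genes that rose share beyond their class was described by the sequence after the stop codon. AATAAA, the letters of the signal for polyadenylation, occurs there on the sense strand in 12 of the 33 genes with any annotated bases (36.4%). It does so in 82.4% of 21193 genes in all. A match is one of letters, and its use as a signal was not tested. The stretch is shorter in histone genes, with a median of 417 bases against 1083, and longer in the 12 (median 1506 bases) than in the others (96 bases). In Vhl cells 8 of the 12 genes with AATAAA rose, with a median log2 fold change of 0.46, and 5 of the 21 with annotated bases but no AATAAA, with a median of 0.65. In Vhl/Rassf1a cells 5 of 12 (median 0.53) and 5 of 21 (median 0.41) rose. Of the 4 genes with nothing annotated there, 1 rose in each of these genotypes. The median level per kb was 0.86 CPM in the 12 and 1.00 in the 21. A level per kb does not give the counts of a gene, on which a call also depends. Total counts ran from 137 (Hist4h4) to 55150 (Hist1h1c) in the 12 and from 256 (Hist1h3e) to 8385 (Hist1h4i) in the 21. The sets were not matched for counts, so their shares of called genes cannot be compared directly. The part of counts in these shares was not tested. The 18 short RNAs known to lack a poly(A) tail, without Malat1 and Neat1, summed to 0.87 to 2.80 CPM in all libraries. In Vhl cells they summed to 1.13 to 1.24 CPM under GFP and 1.47 to 2.16 under Cre. In Vhl/Rassf1a cells they summed to 1.56 to 2.80 CPM under GFP and 1.15 to 1.51 under Cre. Their sum was thus higher in Cre in Vhl cells and lower in Cre in Vhl/Rassf1a cells. Its part in the histone result was not tested.

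Other genes of histone biology and of the cell cycle were followed as lists, whose counts stand beside the shares of all genes, 17.4% called higher and 18.7% lower in Vhl cells (median -0.01) and 14.9% higher and 14.8% lower in Vhl/Rassf1a cells (median 0.00). Of 30 genes of histone RNA processing and transcription, 4 rose and 1 fell in Vhl cells, with a median log2 fold change of 0.01. They include Cstf2 (0.27, SE 0.05), a subunit of the cleavage stimulation factor, Tut1 (0.35, SE 0.07) and Tut4 (-0.47, SE 0.09), which add uridines to RNA ends, and Lsm11 (0.25, SE 0.07), a protein of the U7 particle that processes histone RNA. Among the same 30 genes, 4 rose and 3 fell in Vhl/Rassf1a cells, with a median of -0.01. Slbp was at -0.02 (SE 0.08, adjusted p = 0.853) in Vhl and 0.05 (SE 0.08, adjusted p = 0.692) in Vhl/Rassf1a cells.

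Replacement histones, whose mRNAs are mostly polyadenylated, fell in 6 of 11 tested genes in Vhl cells and rose in none, with a median of -0.40. They include Cenpa (-0.80, SE 0.06), the H3 variant of centromeres, H2afz (-0.56, SE 0.06) and H2afv (-0.48, SE 0.07), the H2A.Z genes, and H2afy2 (-0.88, SE 0.09), a macroH2A gene. Of the 11, 6 fell in Vhl/Rassf1a cells, with a median of -0.22. Of 23 histone chaperone genes, 9 fell and 3 rose in Vhl and 9 fell and 2 rose in Vhl/Rassf1a cells, with medians of -0.16 and -0.17. Examples in Vhl cells are Nasp (-0.51, SE 0.06), which carries H3 and H4, Chaf1b (-0.66, SE 0.10), a subunit of the assembly factor CAF-1, and Asf1b (-0.55, SE 0.10).

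Genes of S phase and replication fell in 29 of 42 in both genotypes, with medians of -0.31 and -0.32, and 1 rose in Vhl cells. They include Ccna2 (-0.83, SE 0.07), the cyclin of S phase, Mcm10 (-0.70, SE 0.07), Mcm6 (-0.33, SE 0.04) and Uhrf1 (-0.69, SE 0.08) in Vhl cells. All 30 genes of mitosis fell in Vhl cells and 23 in Vhl/Rassf1a cells, with medians of -0.81 and -0.27. In WT and Rassf1a cells edgeR and DESeq2 called 0 genes of these 5 lists, and at most 2 genes of a list in WT and 3 in Rassf1a cells had an unadjusted p under 0.05. Summed S phase RNA of Vhl cells was 1467 to 1485 CPM under GFP and 1213 to 1259 under Cre, and that of Vhl/Rassf1a cells 1799 to 1851 under GFP and 1469 to 1505 under Cre. The 14 and 11 cluster genes that rose were thus higher in the same Cre libraries in which S phase genes were lower. The family is made mostly in S phase, as mRNAs that end in the stem-loop. Whether the counts come from these or from polyadenylated transcripts was not tested. The part of the cell cycle in the histone result was not tested either.

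**Figure D5:**
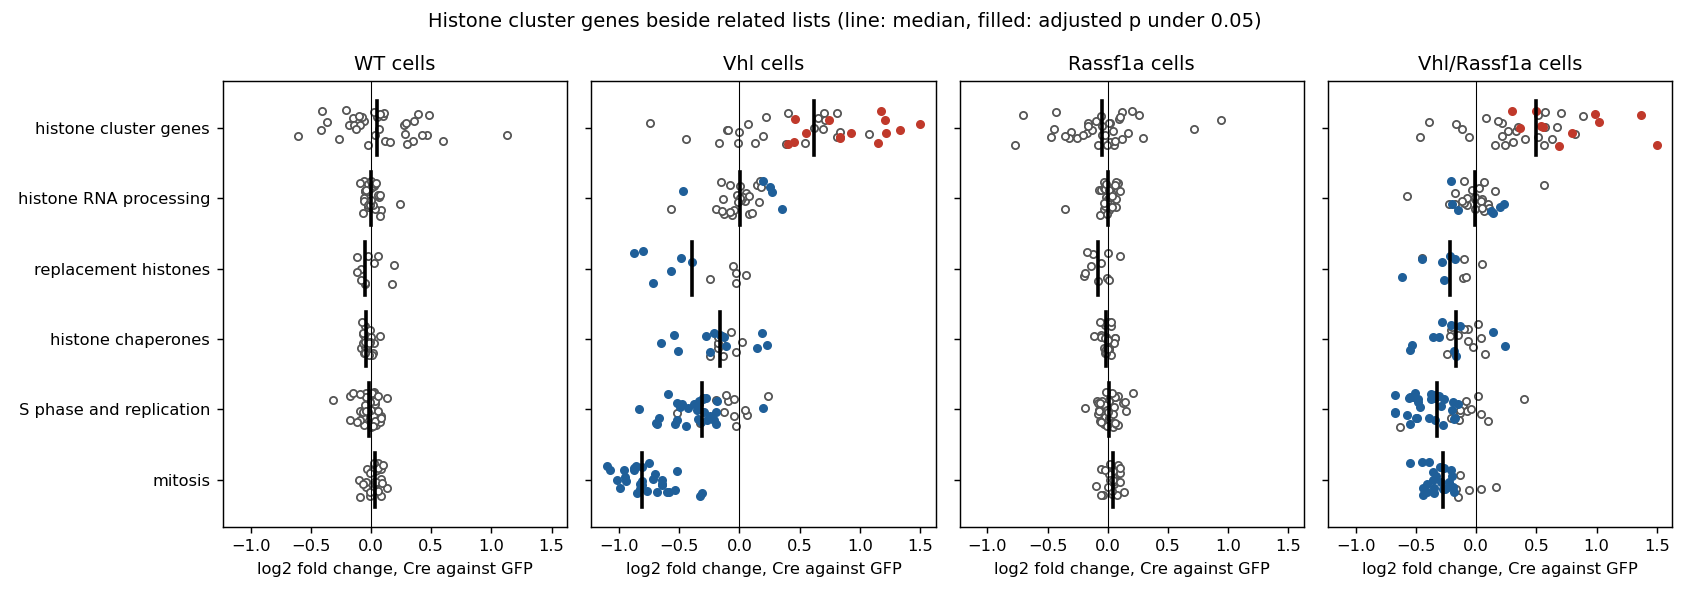
Log2 fold change of Cre against GFP for the 37 histone cluster genes and for the tested genes of 5 related lists in the 4 genotypes (points), with a line at the median of each list. In Vhl cells the cluster genes have a median of 0.62, while the medians are -0.31 for S phase genes and -0.81 for mitosis genes. In WT cells the cluster genes have a median of 0.05.

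Markers of other cell types were counted beside the histone result, with the same shares of all genes as background. Of the 5 epithelial markers tested out of 6, 5 rose in Vhl and 3 in Vhl/Rassf1a cells, and the sum of the 6 was 37.7 to 38.8 CPM under GFP and 126 to 146 under Cre in Vhl cells, and 75.4 to 97.0 under GFP and 194 to 201 under Cre in Vhl/Rassf1a cells. In WT cells it was 75.9 to 94.4 in GFP and 69.0 to 82.8 in Cre, and in Rassf1a cells 44.3 to 64.1 in GFP and 45.7 to 54.7 in Cre. Of 5 endothelial markers 3 rose in Vhl and 2 in Vhl/Rassf1a cells, with sums of 5.55 to 6.75 CPM under GFP and 11.9 to 13.1 under Cre in Vhl cells and of 11.6 to 12.4 and 12.8 to 14.4 in Vhl/Rassf1a cells. Of 3 macrophage markers tested out of 5, 1 rose in each of the 2 genotypes, with a sum over the 5 of at most 7.01 CPM. Of 10 fibroblast markers 6 fell in Vhl cells and 2 fell and 1 rose in Vhl/Rassf1a cells, while 1 rose in WT cells. Of 3 proximal tubule markers tested out of 5, the cell type of the design note, 2 rose and 1 fell in both genotypes, and 1 fell in WT cells. Their sum over the 5 was 187 to 228 CPM with GFP and 193 to 198 with Cre in Vhl cells, which overlap. It was lower with Cre, without overlap, in Vhl/Rassf1a cells (332 to 355 against 269 to 279), in WT cells (312 to 349 against 243 to 264) and in Rassf1a cells (327 to 367 against 279 to 304). None of the epithelial, endothelial and macrophage markers was at 0 in all libraries, and their part in the histone result was not tested.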

How the data were processed

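The authors deposited whole-number read counts, not normalised, for 24 libraries and 45706 Ensembl IDs. The submitters' processing notes name Trimmomatic 0.38 for trimming, STAR 2.5.2b for alignment and the build GRCm38. Which tool counted the reads, and on which strand, is not given in the sources used here. Groups came from the sample titles and symbols from GENCODE M21, which left 563 IDs unnamed. Genes were kept by filterByExpr on the 8 groups (minimum count 10, minimum total 15), leaving 16573. A quasi-likelihood model of edgeR 4.0.16 (R 4.3.3, TMM, 1 mean per group) with 16 residual degrees of freedom used all 24 libraries and was tested on simulated data. Tests were two-sided, adjusted by Benjamini-Hochberg over all genes tested in each of 11 comparisons, with a threshold of 0.05. CPM used TMM library sizes. Alternatives were DESeq2 1.42.0 and its size factors, no filter, own-group fits, GC offsets, a replicate block and each library left out. Replicates differed by more than sampling noise. The members, gene lists and comparisons were chosen with earlier results of these data known. Named with all values were, per class, the 2 members with the highest mean CPM and the 2 with the smallest adjusted p in Vhl cells, any member called in WT or Rassf1a cells or between Vhl/Rassf1a and Vhl effects, and up to 4 genes per related list. Other members are given by counts and ranges or with their fold change.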

Additional observations from a re-analysis of the deposited data

Results flagged for a closer look

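The results below drew a closer look because the effect of Cre on a histone gene differed between genotypes in a test of the difference itself (edgeR, log2 scale, adjusted over all genes). Between Vhl and WT cells the difference was 1.94 for Hist1h4j (adjusted p = 0.0145), 1.59 for Hist1h4a (adjusted p = 0.00389) and 1.52 for Hist2h4 (adjusted p = 0.00176). It was 0.96 for Hist1h1d (adjusted p = 0.0173), 0.85 for Hist1h3b (adjusted p = 0.00401) and 0.77 for Hist1h4i (adjusted p = 0.000178). For Hist1h2be it was 0.49 (adjusted p = 0.00412), for Hist1h2bc 0.35 (adjusted p = 0.00196) and for Hist1h1c 0.29 (adjusted p = 0.0365).

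Between Vhl/Rassf1a and WT cells the difference was 0.92 for Hist1h1d (adjusted p = 0.0341), 0.47 for Hist1h4i (adjusted p = 0.0212), 0.44 for Hist1h2bc (adjusted p = 0.000474) and 0.40 for Hist1h2be (adjusted p = 0.028). Between Vhl/Rassf1a and Vhl cells it was -0.84 for Hist1h3b (adjusted p = 0.0146). The 2 sets of differences from WT share the WT libraries. In Hist1h1d the WT library GFP 3, at 3.29 CPM, was above the other 5 WT libraries, and without it the difference was 0.69 (adjusted p = 0.0718) for Vhl and 0.65 (adjusted p = 0.123) for Vhl/Rassf1a cells.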

How the results depend on the processing

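Numbers of histone genes called were recomputed under each alternative. With 1 library left out in turn, 0 to 1 were called for Cre against GFP in WT, 10 to 12 in Vhl, 0 to 0 in Rassf1a and 8 to 11 in Vhl/Rassf1a cells, and at 2-fold or more 0 to 0, 4 to 6, 0 to 0 and 1 to 3. The single WT call came without WT GFP 2. The same ranges were 6 to 10 for Vhl minus WT effects, 0 to 0 for Rassf1a minus WT, 2 to 5 for Vhl/Rassf1a minus WT and 1 to 1 for Vhl/Rassf1a minus Vhl, and 3 to 6, 0 to 2 and 2 to 5 for the GFP libraries of Vhl, Rassf1a and Vhl/Rassf1a against WT. Other counts beyond 1.5 times the value reported were, for Vhl/Rassf1a minus WT, 2 when the fit held just the 4 groups concerned and 7 with block and GC offsets; for Rassf1a GFP, 1 without the filter; and for Vhl/Rassf1a GFP, 2 when the fit held just those groups, 7 with GC offsets and 7 with block and GC offsets. The cause was not tested.

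Samples of different groups share only a replicate number: correlations of same-numbered deviations in the 12 pairs were -0.08 to 0.033, with 0 over 0.1. With the replicate block, 13 genes were called in Vhl, 12 in Vhl/Rassf1a, 0 in WT and 0 in Rassf1a cells, 9, 0, 4 and 1 for the differences of effects in the order above, and 7, 0 and 3 for the GFP libraries. No fold change of a called gene changed sign. Leaving out Rassf1a GFP 1 and Vhl/Rassf1a GFP 2 was chosen after seeing the data. Depth limits the 24 genes with a mean under 1 CPM.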
